A study of Mus musculus with 4 samples.

Results

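The genes described here move acid and base across membranes or make it inside cells: the Slc4a bicarbonate carriers, the Slc9a sodium-proton exchangers and the Car carbonic anhydrases. They were chosen by gene symbol alone, as an Slc4a, Slc9a or Car stem followed by a number (with a or b allowed after the number in Car), and 35 of the 24346 symbols in the files matched, 10 in Slc4a, 9 in Slc9a and 16 in Car. RNA sequencing compared primary cultures of mouse inner ear cells from the vestibular organs, which sense head movement, with those from the cochlea, which senses sound, with 2 libraries per group. The sources used here do not give strain, age, treatment or time in culture. The labels do not tell whether libraries of a group stem from separate cultures or animals. The p-values therefore measure only the spread between these libraries, which may be technical.

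Carbonic anhydrases interconvert carbon dioxide and water with bicarbonate and a proton. Slc4 proteins carry the bicarbonate across membranes, in exchange for chloride or together with sodium, and Slc9 proteins swap a sodium ion for a proton at the cell surface or in endosomes and the Golgi. In the inner ear these proteins serve the pH of the endolymph, the fluid that bathes the sensory cells, together with the anion exchanger pendrin, and mice without Slc4a7 lose hearing.

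Values are FPKM, which scale fragments by transcript length and library size, so levels can be set beside each other between genes. Cochlear library 2 stood apart from the other 3 libraries: the summed FPKM of 16 macrophage markers was 30.7 there, against 9245 and 7000 in vestibular libraries 1 and 2 and 7097 in cochlear library 1. Vestibular library 2 stood apart as well. Its summed FPKM of 18 epithelial markers (17 with a mean of at least 1 FPKM) was 155, against 1362 in vestibular library 1 and 2443 and 3035 in cochlear libraries 1 and 2, and its sum of 11 cartilage markers was 4358, against 784 in vestibular library 1 and 230 and 235 in the cochlear libraries. Most markers of hair cells, the sensory cells, were low. The hair cell regulators Atoh1 and Pou4f3 stayed at or below 0.1001 and 1.005 FPKM, and 3 of 12 hair cell markers had a mean of at least 1 FPKM. These were Myo7a (5.81 to 13.4 FPKM), Myo6 (9.66 to 24.5) and Espn (4.53 to 17.2, with both cochlear values above). The 12 markers summed to between 30.9 and 43.0 FPKM in the 4 libraries. In bulk samples, fewer cells of a type and less RNA per cell cannot be told apart.

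Of the 35 genes, 24 had a mean of at least 1 FPKM over the 4 libraries and were tested, 7 in Slc4a, 8 in Slc9a and 9 in Car. In limma, with p adjusted over all 13200 genes tested, 0 of the 24 passed 0.05 (background 0.0303% of all genes tested). At an unadjusted p under 0.05 there were 11 of 24 (45.8%), 5 with vestibular and 6 with cochlear libraries above, where the background was 18.2% of all genes tested (7.61% with vestibular and 10.6% with cochlear above). The number of members was 6 without cochlear library 1 and 7 without cochlear library 2, against a background of 14.5% and 7.73% of genes in those fits. It was 11 without vestibular library 1 and 10 without vestibular library 2 (background 20.7% and 13.3%). Both libraries of one group lay above both of the other in 17 of the 24 (8 with vestibular above, 9 with cochlear above), against 55.3% of all genes tested (26.9% with vestibular and 28.4% with cochlear above). The median absolute log2 difference was 0.68 over the members tested and 0.25 over all genes tested. By family, the groups were apart in 3 of 7 Slc4a, 5 of 8 Slc9a and 9 of 9 Car genes, and the unadjusted p was under 0.05 in 3, 2 and 6 of them.

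**Figure D1:**
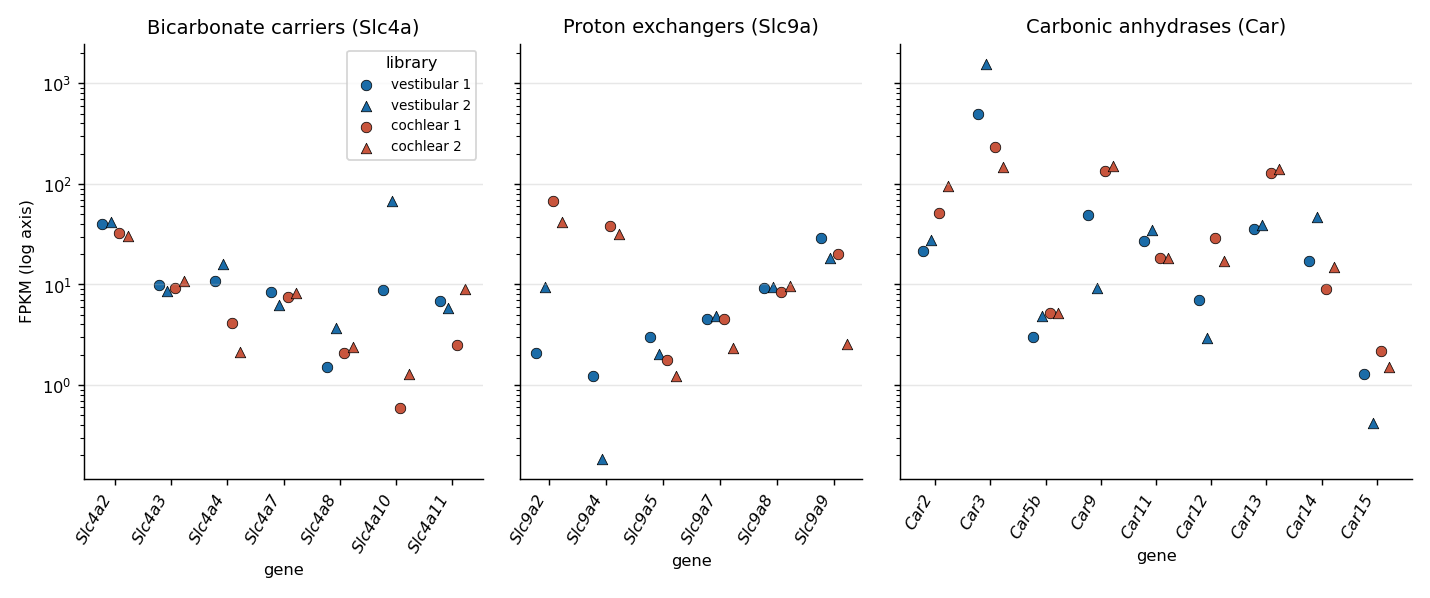
FPKM (log axis) of 22 genes with a mean of at least 1 FPKM, by gene, in each of the 4 libraries (circles library 1, triangles library 2, blue vestibular, red cochlear). Slc9a2 and Slc9a4 stand at 31.5 FPKM or more in both cochlear libraries and at most at 9.43 in both vestibular libraries, and Car3 is the highest member in 3 of the 4 libraries.

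Promoter windows from RefSeq (GRCm38.p6, 250 bases before to 50 after a gene's start) matched 23 of the 35 genes. The windows of Car9, Car12 and Car14 are shown because these membrane-bound carbonic anhydrases had levels in opposite order between the groups, and the 2 windows of Slc4a10 because its difference was the largest with vestibular libraries above. Capitals mark letters searched on both strands: ACGTG (the core of the hypoxia response element), TGANTCA (the AP-1 site) and TATAAA. The windows are chr4:43506776-43507075 (plus strand) for Car9, chr9:66713436-66713735 (plus strand) for Car12, chr3:95904636-95904935 (minus strand) for Car14, and chr2:62046265-62046564 and chr2:62147628-62147927 (both plus strand) for Slc4a10.
Car9: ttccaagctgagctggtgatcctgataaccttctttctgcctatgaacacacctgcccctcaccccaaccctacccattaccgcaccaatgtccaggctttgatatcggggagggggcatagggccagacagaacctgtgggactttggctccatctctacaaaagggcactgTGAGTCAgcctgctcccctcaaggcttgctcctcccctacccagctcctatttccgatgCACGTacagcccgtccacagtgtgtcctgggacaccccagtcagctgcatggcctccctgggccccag
Car12: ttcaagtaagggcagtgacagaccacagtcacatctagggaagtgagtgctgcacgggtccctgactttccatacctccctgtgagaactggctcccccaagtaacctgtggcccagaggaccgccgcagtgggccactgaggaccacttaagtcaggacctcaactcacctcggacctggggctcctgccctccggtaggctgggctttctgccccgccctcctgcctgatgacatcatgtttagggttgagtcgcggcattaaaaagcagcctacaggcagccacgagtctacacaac
Car14: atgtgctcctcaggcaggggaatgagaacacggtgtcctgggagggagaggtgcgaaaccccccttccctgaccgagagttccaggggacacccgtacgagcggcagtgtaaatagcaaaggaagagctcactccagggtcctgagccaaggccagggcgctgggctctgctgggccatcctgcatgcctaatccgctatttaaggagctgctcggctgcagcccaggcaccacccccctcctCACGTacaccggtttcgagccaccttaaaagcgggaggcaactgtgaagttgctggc
Slc4a10, first start: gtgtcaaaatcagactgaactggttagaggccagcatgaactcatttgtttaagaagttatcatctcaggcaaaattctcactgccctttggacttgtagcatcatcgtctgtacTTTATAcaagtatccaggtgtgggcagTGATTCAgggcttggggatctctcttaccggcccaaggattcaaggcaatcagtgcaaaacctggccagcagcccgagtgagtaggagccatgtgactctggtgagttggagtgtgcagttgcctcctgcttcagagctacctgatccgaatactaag
Slc4a10, second start: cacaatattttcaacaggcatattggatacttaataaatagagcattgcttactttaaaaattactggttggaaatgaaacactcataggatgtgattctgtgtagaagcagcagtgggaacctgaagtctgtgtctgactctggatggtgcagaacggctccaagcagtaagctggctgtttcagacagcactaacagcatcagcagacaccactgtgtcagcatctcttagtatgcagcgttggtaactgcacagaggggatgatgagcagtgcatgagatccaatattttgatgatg

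In the Car9 window ACGTG lies on the other strand and begins 18 bases before the RefSeq start, and TGANTCA begins 77 bases before it. GENCODE M21 starts Car9 at 43506966, earlier in this window, and by that start the ACGTG letters lie inside the gene. In the Car14 window ACGTG, also on the other strand, begins 7 bases before the start. The first Slc4a10 window holds TATAAA, on the other strand, from 135 bases before the start and TGANTCA from 108 before it. None of the marked stretches overlaps another, and the Car12 window and the second Slc4a10 window hold none of these letters. Among all 32851 windows of the same length, 19.6% held ACGTG, 7.81% TGANTCA and 13.6% TATAAA. Of the 30 windows of the families, 6, 3 and 4 held them. A match describes the letters in the window and is not a site shown to be used.

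The carbonic anhydrases made up most of the FPKM of the 3 families. Their summed FPKM was 664 and 1738 from vestibular cells (library 1, then 2) against 613 and 596 from cochlear cells. Car3, a slow cytosolic enzyme that is abundant in muscle and fat and is also used as a marker of otic fibrocytes, took 75.3% and 90.2% of that sum from vestibular cells against 38.2% and 24.9% from cochlear cells. Without Car3 the order of the groups turned over: the other 15 genes summed to 164 and 170 FPKM from vestibular cells against 379 and 448 from cochlear cells. Within that rest, Car7, Car11 and Car14 had both vestibular values above, as Car3 did.

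**Figure D2:**
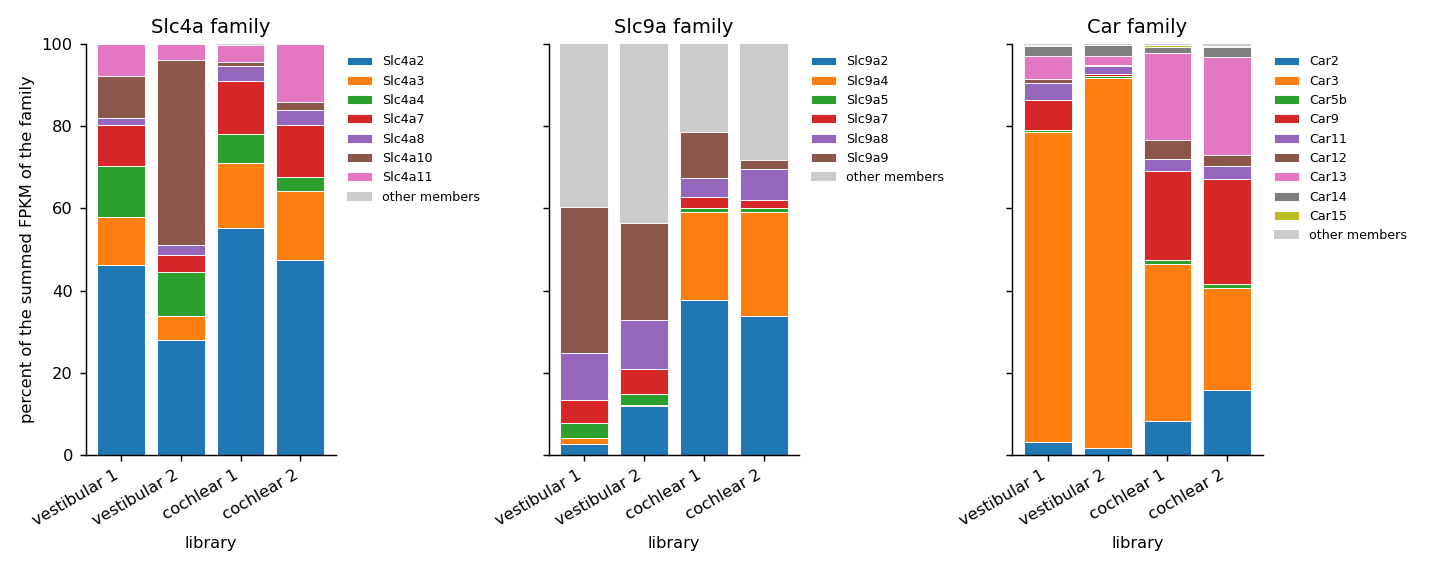
Share of each gene in the summed FPKM of its family (percent, stacked bars), by library, for Slc4a, Slc9a and Car, with the genes not named in the key in grey. Car3 takes 75.3% and 90.2% of the Car bars of the vestibular libraries and 38.2% and 24.9% of the cochlear bars, and Slc9a2 with Slc9a4 fill most of the cochlear Slc9a bars.

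Among the cytosolic enzymes, Car3 had 500 and 1569 FPKM from vestibular cells (library 1, then 2) against 234 and 148 from cochlear cells. The vestibular values were the highest pair, and vestibular library 1 had 0.319 times the level of vestibular library 2. The log2 difference, vestibular minus cochlear on the log2(FPKM + 1) scale, was 2.24 (SE 0.66, limma adjusted p 0.235) and ranged from 1.42 without vestibular library 2 to 3.07 without vestibular library 1. The 12 skeletal muscle markers summed to 7.90 and 3.81 FPKM from vestibular cells against 31.3 and 21.2 from cochlear cells, and without the oxygen carrier gene Mb to 7.40 and 3.56 against 6.34 and 3.9997. Actn3, Tnnt3 and Myh1 of that list had both vestibular values above, all at or below 1.56 FPKM. Mb (0.494 and 0.248 against 25.0 and 17.2 FPKM) and Mylpf (0.191 and 0.861 against 1.86 and 0.989) had both cochlear values above. The 8 fat cell markers summed to 20.2 and 13.8 against 35.6 and 6.30 FPKM, with Lep listed at 0 in all libraries and Adipoq at 0 in both vestibular libraries. The otic fibrocyte markers other than Car3 summed to 375 and 2238 FPKM from vestibular cells against 694 and 793 from cochlear cells. Vestibular library 2 was thus the highest in both, while vestibular library 1 was the lowest of the 4 in the markers and the second in Car3. Of these markers, Otor (109 and 427 against 71.1 and 101 FPKM) and Pou3f4 (73.7 and 124 against 46.4 and 49.6) had both vestibular values above. Aldh1a2 (69.8 and 64.3 against 298 and 399 FPKM) and Kcnk2 (2.19 and 0.177 against 2.69 and 13.8) had both cochlear values above. The groups overlapped in the other markers of the list. The 16 fibroblast matrix markers, set beside Car3 after their values were seen, summed to 7709 and 13687 FPKM from vestibular cells against 4490 and 3748 from cochlear cells. Their sums had the same order of the 4 libraries as Car3. The part of muscle cells, fat cells, otic fibrocytes and fibroblasts in the Car3 difference was not tested.

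Car13, another cytosolic enzyme, had 35.9 and 39.4 FPKM from vestibular cells (library 1, then 2) against 129 and 142 from cochlear cells. The cochlear mean was 3.60 times the vestibular mean, and libraries of a group were close to each other. Its log2 difference of -1.82 (SE 0.11) had the lowest adjusted p of the 24 genes, 0.0665 in limma, and ran from -1.89 to -1.76 on leaving out any one library. The epithelial marker sum was 8.79 times as high in vestibular library 1 as in vestibular library 2, and Car13 0.910 times. Within that list Cdh1, the gene of E-cadherin, had 32.2 and 33.9 against 122 and 146 FPKM, values near those of Car13. Cdh1 was the exception in the list, as 17 of the 18 epithelial markers were higher in vestibular library 1 than in vestibular library 2. The part of epithelial cells in the Car13 difference was not tested. Car2, the fast and widespread cytosolic enzyme, had 21.6 and 27.7 FPKM from vestibular cells against 51.0 and 94.5 from cochlear cells. The groups did not overlap (log2 difference -1.47, SE 0.36, limma adjusted p 0.207), and the difference was -1.03 without cochlear library 2 and -1.91 without cochlear library 1. Osteoclasts and red blood cells are both rich in Car2. The 8 osteoclast markers summed to 81.3 and 128 FPKM (vestibular) against 58.4 and 42.2 (cochlear), and without Ctsk to 22.2 and 14.1 against 16.8 and 11.97. Dcstamp and Calcr were at most 0.171 and 0.0276 FPKM, while Acp5, Nfatc1 and Tnfrsf11a reached 8.29, 7.85 and 5.52 FPKM. The part of osteoclasts in the Car2 difference was not tested. None of the 9 red blood cell markers in the files passed 0.418 FPKM, and Hba-a1, Hba-a2 and Hbb-bs were listed at 0 in all 4 libraries.

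Car13, Car1, Car3 and Car2 lie in this order on chromosome 3 (mm10, GENCODE M21), with no other protein-coding gene between them. Car13 spans 14641727 to 14663002 on the plus strand, Car3 14863512 to 14872523 and Car2 14886273 to 14900770, both also on the plus strand. Car3 and Car2 are 13.7 kb apart, and their levels had opposite orders between the groups, with Car3 above in the vestibular and Car2 above in the cochlear libraries. Car1, the red blood cell enzyme between Car13 and Car3, reached at most 0.289 FPKM in any library.

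The membrane-bound enzymes, which work on the outer face of the cell, summed to 75.1 and 59.3 FPKM from vestibular cells against 173 and 186 from cochlear cells. Car9, an enzyme induced by low oxygen, had 49.5 FPKM in vestibular library 1, 9.25 in vestibular library 2, and 133 and 152 in cochlear libraries 1 and 2. All cochlear values lay above, and the vestibular libraries differed 5.35-fold (log2 difference -2.66, SE 0.85, limma adjusted p 0.255). Without vestibular library 2 the difference was -1.51, and without vestibular library 1 it was -3.81. An antisense gene, Gm12454, covers 1782 bases of Car9. Car12, a related surface enzyme of secretory epithelia, had 6.98 and 2.93 FPKM against 28.8 and 17.2 (log2 difference -2.05, SE 0.47, limma adjusted p 0.194), and its difference ran from -2.57 without vestibular library 1 to -1.54 without vestibular library 2. Both genes were lowest in vestibular library 2, as were 16 of the 18 epithelial markers. The part of epithelial cells in these differences was not tested.

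Car14, the third surface enzyme, had the other order, with 17.3 and 46.7 FPKM from vestibular cells (library 1, then 2) against 8.99 and 14.8 from cochlear cells. The groups did not overlap, but the lowest vestibular and the highest cochlear value were close, and the limma adjusted p was 0.353. It overlaps Aph1a on the other strand over 521 bases, and fragments could be shared there if strand was not used in counting. Car15, a lipid-anchored enzyme, had 1.28 and 0.420 FPKM from vestibular cells against 2.16 and 1.51 from cochlear cells. It shares 3088 bases with the annotated gene Gm20518 on the same strand, and its value could be split with it.

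Of the enzymes elsewhere in the cell, the mitochondrial Car5b had 3.005 and 4.82 FPKM from vestibular cells against 5.24 and 5.20 from cochlear cells, a gap smaller than that between the vestibular libraries. Car11 belongs to the carbonic anhydrase-related proteins, which have the fold of the enzyme without its activity. It had 26.9 and 34.5 FPKM in the vestibular libraries and 18.2 and 18.3 in the cochlear libraries, with the groups apart (log2 difference 0.71, SE 0.16, limma adjusted p 0.190). Its catalytically inactive relatives Car8 and Car10 were low, at most 0.425 and 1.10 FPKM, and both cochlear values of each lay above both vestibular values.

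In the Slc9a family, exchangers of the cell surface took 33.7% and 44.6% of the summed FPKM from vestibular cells (library 1, then 2) against 75.8% and 81.2% from cochlear cells. Their sums were 27.3 and 35.2 against 136 and 101 FPKM. Slc9a4, a basolateral exchanger known from stomach and kidney epithelium, had 1.22 and 0.182 FPKM from vestibular cells against 38.4 and 31.5 from cochlear cells. This was the largest difference of the 24 genes in either direction: the cochlear mean was 49.97 times the vestibular mean, and the log2 difference was -4.47 (SE 0.37, limma adjusted p 0.0790). Without vestibular library 1 the ratio was 192 and the log2 difference -4.92, and without vestibular library 2 they were 28.7 and -4.01.

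Slc9a2, an apical exchanger of epithelia, had 2.104 and 9.43 FPKM from vestibular cells (library 1, then 2) against 67.3 and 41.9 from cochlear cells. The groups did not overlap, and the cochlear mean was 9.47 times the vestibular mean (log2 difference -3.25, SE 0.69, limma adjusted p 0.186). Without vestibular library 1 the ratio was 5.79 and the log2 difference -2.38, and without vestibular library 2 they were 26.0 and -4.13. Slc9a4 and Slc9a2 are neighbours on chromosome 1, at 40580081 to 40630725 and 40680574 to 40769273, both on the plus strand of mm10 and 49.8 kb apart, with no protein-coding gene between them. The 2 genes did not share an order between the vestibular libraries: Slc9a4 was higher in vestibular library 1, as 17 of the 18 epithelial markers were, and Slc9a2 was higher in vestibular library 2. In vestibular library 1 the epithelial sum was 1362 FPKM, against 2443 and 3035 in the cochlear libraries, while Slc9a4 stood at 1.22 FPKM there against 38.4 and 31.5. Antisense genes cover 6195 bases of Slc9a2 (Gm37623) and 582 bases of Slc9a4 (Gm35801). Gm37435, also on the other strand, covers 3947 bases of Slc9a4, and the strand setting of the counting is not known. The part of epithelial cells in the 2 differences was not tested.

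Of the remaining surface exchangers, Slc9a5, known from brain, had 2.99 and 2.03 FPKM from vestibular cells against 1.79 and 1.24 from cochlear cells. Slc9a3, the apical exchanger of gut and kidney, was listed at 0 in all 4 libraries.

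Among the exchangers of endosomes and the Golgi, Slc9a8 was close in level in all 4 libraries. This Golgi exchanger had 9.15 and 9.49 FPKM from vestibular cells against 8.49 and 9.61 from cochlear cells, and its 95% interval in limma for the log2 difference was -0.32 to 0.40. Slc9a7, of the trans-Golgi network, had 4.54 and 4.87 against 4.57 and 2.35 FPKM, with overlapping groups. Slc9a9, a late endosome exchanger, had 28.9 and 18.5 FPKM from vestibular cells, with 19.9 and 2.58 for cochlear libraries 1 and 2. Its low library is the one in which the macrophage markers summed to 30.7 FPKM, the groups overlapped, and without that library the log2 difference was 0.21 in place of 1.48. The part of macrophages in the Slc9a9 values was not tested.

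**Figure D3:**
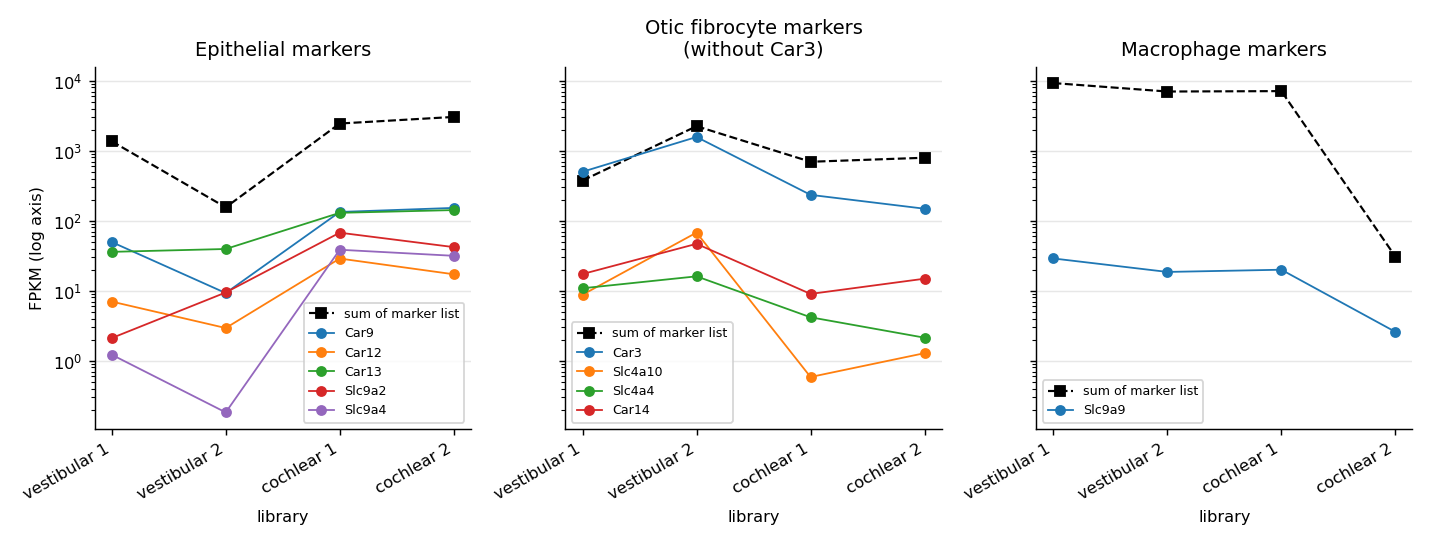
FPKM (log axis) of selected genes and the summed FPKM of a marker list (dashed, members left out) in the 4 libraries, for epithelial, otic fibrocyte and macrophage markers. Lines only join the values of one gene, and the genes were chosen after their values were seen. Slc9a9 and the macrophage sum are both lowest in cochlear library 2, and the epithelial sum is lowest in vestibular library 2, at 155 FPKM.

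In the Slc4a family the chloride-bicarbonate exchangers had close levels in all libraries, at a summed 49.9 and 50.8 FPKM from vestibular cells against 41.6 and 41.5 from cochlear cells. Slc4a2, the widespread exchanger, had 40.0 and 42.2 FPKM from vestibular cells against 32.3 and 30.6 from cochlear cells. The groups were apart and the libraries of a group were close, with a log2 difference of 0.38 (SE 0.10, limma adjusted p 0.219). It shares 2511 bases with Fastk on the other strand, which had 32.5 and 38.1 against 28.7 and 26.9 FPKM. Slc4a3, an exchanger of heart and brain, had 9.97 and 8.61 FPKM against 9.29 and 10.9, with overlapping groups (log2 difference -0.11, SE 0.15, 95% interval -0.54 to 0.32, limma adjusted p 0.719). Slc4a1, the exchanger of red blood cells, was listed at 0 in all 4 libraries.

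The sodium-bicarbonate carriers summed to 29.6 and 93.6 FPKM in vestibular libraries 1 and 2, and to 14.4 and 14.0 in cochlear libraries 1 and 2. Slc4a10, a carrier of the choroid plexus and of neurons, had 8.75 FPKM in vestibular library 1 and 67.6 in vestibular library 2, against 0.584 and 1.28 in the cochlear libraries. It was the highest Slc4a gene in vestibular library 2 alone. The groups did not overlap, yet the vestibular libraries were far apart (log2 difference 3.77, SE 1.06, limma adjusted p 0.230), and the difference was 2.36 without vestibular library 2 and 5.17 without vestibular library 1. The lists of cartilage, otic fibrocyte, fibroblast matrix, glial and melanocyte markers were also highest in vestibular library 2 (fibroblast matrix sum 13687 FPKM, against 7709 in vestibular library 1 and 4490 and 3748 in the cochlear libraries; glial sum 379, against 221, 267 and 207; melanocyte sum 254 FPKM, against 49.3 in vestibular library 1 and 122 and 114 in the cochlear libraries). In vestibular library 2 the glial sum was mostly S100b (178 FPKM) and Pmp22 (167), and the melanocyte sum mostly Dct (166). Sox10, counted in both lists, had 37.7 and 15.5 FPKM against 108 and 100, most of the cochlear melanocyte sums. Erbb3 and Mbp of the glial list were also lowest in vestibular library 2. Of the 8 glial markers tested, 5 had both vestibular values above and 3 both cochlear values. The 12 neuron markers summed to 68.5 and 62.7 against 29.4 and 45.5 FPKM, mostly from Uchl1 in the vestibular libraries. Snap25 and Rbfox3 reached at most 0.274 and 0.751 FPKM. Tubb3 (7.67 and 7.33 against 3.11 and 1.25 FPKM) and Stmn2 (8.15 and 2.50 against 0.762 and 0.266) had both vestibular values above, as Uchl1 did. Map2 had the other order, at 8.48 and 1.79 against 11.9 and 22.9 FPKM. The part of the cells that these lists mark in the Slc4a10 values was not tested.

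Slc4a4, the electrogenic carrier that moves bicarbonate across kidney and pancreas epithelium, had 10.8 and 16.0 FPKM from vestibular cells against 4.17 and 2.13 from cochlear cells. The vestibular mean was 4.26 times the cochlear mean, with the groups apart (log2 difference 1.82, SE 0.35, limma adjusted p 0.169). Leaving out one library moved it between 1.46 and 2.18. Slc4a7, the electroneutral carrier whose loss deafens mice, had 8.49 and 6.28 FPKM from vestibular cells against 7.48 and 8.15 from cochlear cells, and the groups overlapped (95% limma interval of the log2 difference -0.62 to 0.45). Slc4a8, a sodium-driven exchanger of chloride and bicarbonate, had 1.53 and 3.68 against 2.103 and 2.40 FPKM, again with overlapping groups. Slc4a11, a transporter of the cornea whose mutation in people can also impair hearing, had 6.79 and 5.88 FPKM from vestibular cells, with 2.53 and 9.04 for cochlear libraries 1 and 2. The cochlear libraries of Slc4a11 thus lay on either side of both vestibular libraries.

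**Figure D4:**
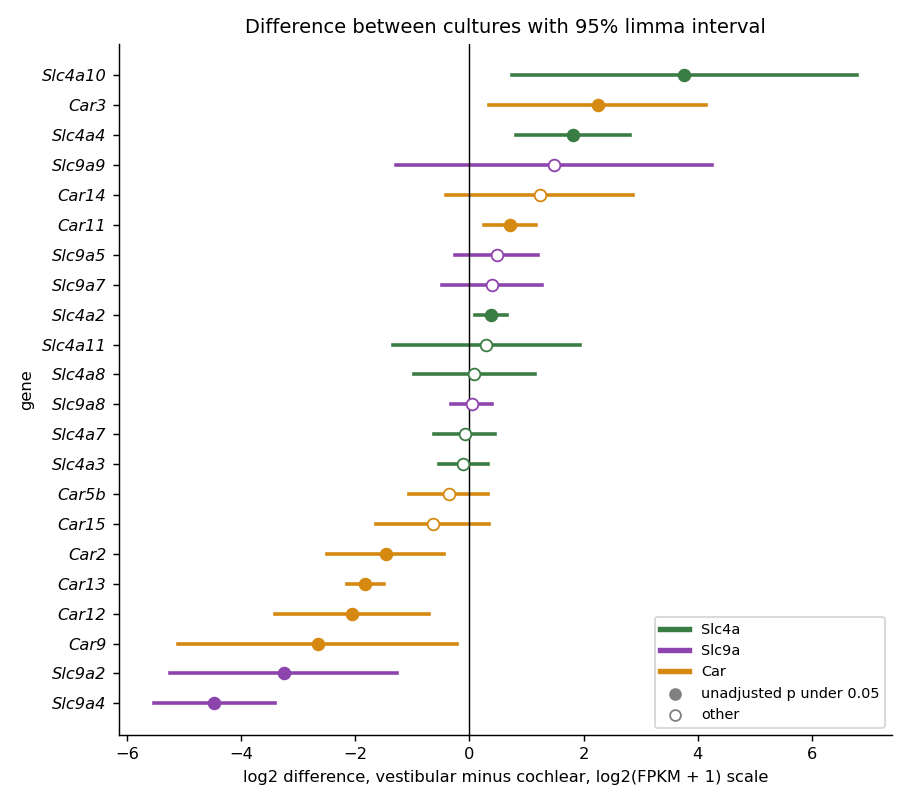
Log2 difference, vestibular minus cochlear on the log2(FPKM + 1) scale, for 22 of the genes tested (points, filled where the unadjusted limma p was under 0.05), with 95% limma intervals (lines) and family by colour. Slc9a4 lies lowest at -4.47 and Slc4a10 highest at 3.77, with a wide interval for Slc4a10 and a narrow one for Car13.

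The remaining 11 genes had a mean under 1 FPKM. Slc4a1 and Slc9a3 were listed at 0 in all libraries, and Slc4a5, Slc4a9 and Car4 reached at most 0.0563, 0.0344 and 0.0845 FPKM. Car1, Car5a and Car7 reached 0.289, 0.435 and 0.977 FPKM, and Car8 and Car10 are given above. Car6, a secreted enzyme of saliva, had 2.19 FPKM in vestibular library 2, 0.0795 in cochlear library 1, and was listed at 0 in the other 2 libraries.

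Genes that work with these proteins were listed separately. Of 16 scaffolds, kinases and cofactors, 13 were tested, limma called 0 over all genes, and 6 had an unadjusted p under 0.05, 1 with vestibular and 5 with cochlear libraries above, where the share over all genes tested was 18.2% (7.61% and 10.6% by direction). Their median log2 difference was -0.06, against 0.01 over all genes tested. Stk39, a kinase that acts on ion carriers, had 24.0 and 31.9 FPKM from vestibular cells against 105 and 134 from cochlear cells (log2 difference -2.06, SE 0.21, limma adjusted p 0.0955). Slc9a3r1, a scaffold that binds Slc9a3 and ezrin, had 48.3 and 19.0 against 107 and 128 FPKM, and Ezr, which encodes ezrin, 76.4 and 88.9 against 125 and 171. Slc9a3r2, the sister scaffold, had the other order, at 17.3 and 28.0 against 11.6 and 13.3 FPKM. Bsg, the chaperone of lactate carriers, stood at 1208 and 1209 FPKM from vestibular cells against 2100.5 and 3019 from cochlear cells. Wnk4, a kinase upstream of Stk39, had 1.89 and 2.53 against 3.65 and 4.10 FPKM.

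Of 24 other carriers and pumps of acid, base, lactate or chloride, 14 were tested, limma called 0, and 5 had an unadjusted p under 0.05, 3 with vestibular and 2 with cochlear libraries above (18.2% of all genes tested, median log2 difference 0.68). Slc26a4, which encodes pendrin, had 1.93 and 0.884 FPKM from vestibular cells against 60.5 and 46.3 from cochlear cells (log2 difference -4.52, SE 0.29, limma adjusted p 0.0665), the same order as Slc9a4. Carriers that move lactate with a proton stood in opposite order: Slc16a3, the lactate exporter, had 39.8 and 28.5 against 87.2 and 67.9 FPKM, and Slc16a1 had 7.61 and 11.7 against 3.72 and 4.23. Slc12a2, the sodium, potassium and chloride carrier, had 32.2 and 50.2 against 23.7 and 20.8 FPKM, and Slc26a11 12.7 and 12.4 against 7.69 and 6.39. Slc16a7, a lactate carrier of low level, had 2.94 and 3.28 against 2.21 and 1.55 FPKM. Atp6v1b2, a proton pump subunit, had 82.4 and 70.8 FPKM from vestibular cells against 70.4 and 48.6 from cochlear cells. Foxi1, a regulator of pendrin-expressing ionocytes, reached at most 0.132 FPKM, and Foxi2 was listed at 0 in all libraries. The 11 markers of ionocytes and other endolymph-forming cells besides Slc26a4 summed to 460 and 233 against 665 and 862 FPKM, and without Atp1b1 to 71.2 and 123 against 74.5 and 69.5. Atp6v0a4 of that list, a proton pump subunit, had 1.56 and 13.3 against 0.458 and 0.122 FPKM. Kcnq1 of that list had the order of Slc26a4, at 4.05 and 1.502 against 6.64 and 8.31 FPKM. Of the 7 markers of these cells tested, Slc26a4 included, 3 were higher in the vestibular and 4 in the cochlear libraries. The part of these cells in the Slc26a4 and Slc9a4 differences was not tested.

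Of 11 sensors of extracellular acid, 5 were tested, limma called 0, and 1 had an unadjusted p under 0.05, with cochlear libraries above. This share of 20.0% was near the 18.2% of all genes tested (median log2 difference 0.41). This was Kcnk5, an acid-sensitive potassium channel, at 1.03 and 0.477 FPKM from vestibular cells against 8.22 and 8.63 from cochlear cells (log2 difference -2.44, SE 0.23, limma adjusted p 0.0914). Gpr65, a proton receptor of leukocytes, had 12.9 and 8.21 FPKM from vestibular cells, with 10.996 and 0.0465 for cochlear libraries 1 and 2, and so was low where the macrophage markers were low. Gpr4, a proton receptor of vessels, had 4.23 and 7.56 against 2.17 and 3.74 FPKM, and both vestibular values lay above both cochlear values. The 10 endothelial markers summed to 28.8 and 54.7 against 123 and 303 FPKM, and without Emcn to 14.2 and 20.3 against 11.5 and 15.7. Cdh5 of that list had 0.915 and 10.7 against 0.293 and 0.0955 FPKM, and Pecam1 was at most 0.155. Emcn and Vwf had the other order (Vwf 0.449 and 0.382 against 1.29 and 1.65 FPKM), and the groups overlapped in Tek and Kdr. The part of endothelial cells in the Gpr4 values was not tested. The acid-sensing channel genes Asic1 and Asic2 stayed at or below 1.70 FPKM in every library.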

How the data were processed

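RNA was sequenced in 2 libraries from vestibular and 2 from cochlear primary culture cells, with TRIzol extraction and a TruSeq stranded mRNA kit, per the labels' protocols. The values the authors deposited are FPKM, one per gene symbol and sample, per the file headers. The submitters' processing notes list Bowtie2 2.2.8, TopHat2 2.1.1, SAMtools 0.1.18 and Cuffdiff 2.2.1, with mm10. The annotation, the strand setting and the scaling were not given in the sources used here. An exact 0 can be a failed estimate. Libraries hold no counts. Among short noncoding RNA genes, ratios between libraries gave a relative FPKM per fragment between 0.861 and 1 (vestibular library 1 set to 1), with 15 of 30 to 24 of 34 genes at a ratio of whole numbers (up to 4, tolerance 0.1%). Absolute depth is unknown, and intervals that need it were not computed.

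The filter kept genes whose mean was 1 FPKM or more, taken as log2(FPKM + 1), which understates differences of low genes. The groups entered limma 3.58.1 (R 4.3.3) (mean-variance trend, 2-sided, Benjamini-Hochberg over all genes kept, threshold 0.05). A run on simulated data with independent genes checked the size of the recovered differences. It did not check whether the p-values hold in these libraries. With 2 against 2, the smallest exact permutation p is 0.333. Every limma p rests instead on its model, which joins a gene's own spread between libraries with that shared across genes. The genes and lists were chosen with earlier results of these data known. Single values of 2 tested members are not reported here, though counts and sums include them. The others are named; log2 difference, SE and adjusted p are given for members with an unadjusted p under 0.05 and the 3 highest of each family, and for list genes the 6 with the smallest p and the 2 highest were named. Intervals, adjusted p or leave-one-out values of other members, marker genes named singly and list sums without one gene were picked after their values were seen. Gene positions are from GENCODE M21 (GRCm38), and promoter windows are from RefSeq. Alternatives were another pseudocount (0.1), other filters (none, mean of at least 5), median and quantile scaling, no trend, a replicate block and leaving out each library.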

Additional observations from a re-analysis of the deposited data

How the results depend on the processing

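Of all genes tested, limma called 4, against 2 with no filter on low values and 0 without any one library. No member was called under any alternative run, and the lowest adjusted p of a member was 0.0577, under quantile normalization. The number of members with an unadjusted p under 0.05 was 11 and ranged from 6 to 11 on leaving out one library. The median log2 difference over the members tested was 0.06, and it was 0.00051 with no filter, 0.033 with quantile normalization, and between -0.090 and 0.12 on leaving out one library. The groups share the numbers 1 and 2, and differences between libraries 1 and 2 correlated at 0.0432 across genes between the groups. The vestibular pair differed in epithelial and cartilage markers and the cochlear pair in macrophage markers. The correlation therefore cannot decide whether equal numbers mark a shared preparation. With a replicate block limma called 0 genes in all, and 10 members had an unadjusted p under 0.05. Of 333 values for 31 single genes, 332 kept their direction and side of the threshold. Gpr65 turned from 1.67 to -0.087 without cochlear library 2, and leaving out one library gave values from -0.087 to 3.43. Leaving out one library also turned the direction of Slc4a7, Slc4a8, Slc4a11 and Slc9a8, 4 of the 24 members. With 2 libraries a group and no fragment counts, small differences and genes under 1 FPKM are beyond what these values can resolve.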
